A study of Mus musculus with 8 samples.

Results

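The genes described here are 10 genes of the major histocompatibility complex (MHC) class I antigen presentation pathway: B2m, H2-K1, H2-D1, H2-T23, H2-Q7, Tap1, Tap2, Tapbp, Nlrc5 and Erap1. They were chosen by name, and all their rows were taken from 2 deposited lists of N6-methyladenosine (m6A) peaks. All 10 were present, among 12413 genes with a peak in either list. The study treated mouse primary T cells with an agent labelled PTC, which the labels do not describe further, or kept them as control cells, for 24 h. RNA was immunoprecipitated for m6A (2 PTC and 2 control samples) or sequenced as input (2 PTC and 2 control samples), which makes 8 samples. The labels give no strain, age or number of animals, nor whether samples came from separate animals or cultures, and list 1 growth medium for all. The authors deposited 1 peak list for PTC, with 23368 peaks, and 1 for control, with 29586 peaks, and no list used here holds a value per sample. Differences between the lists therefore have no replicate check, no p-value was computed between conditions, and the read depth is unknown.

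Class I molecules display peptides from inside the cell to CD8+ T cells and natural killer cells. A heavy chain, encoded by the H2 genes, pairs with beta-2 microglobulin, the product of B2m. The Tap1 and Tap2 proteins form the transporter that carries peptides into the endoplasmic reticulum, tapasin (Tapbp) holds the empty class I molecule at this transporter, and the aminopeptidase Erap1 trims the peptides. Nlrc5 is the transactivator of class I genes. T cells carry class I molecules on their surface like most nucleated cells. In m6A mapping, antibody-bound RNA fragments pile up around methylated adenosines. These commonly lie in a consensus named DRACH, of which GGACT is a frequent form, and are known to concentrate near stop codons. A peak also needs enough reads, so its absence from a list can reflect little RNA as well as little methylation. Fewer cells with a transcript and less of it per cell cannot be told apart in bulk RNA.

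All 10 genes had peaks in both lists, against 79.2% of all genes with a peak in either list. The PTC list held 27 peaks of these genes and the control list 40, a ratio of 0.675, where the whole lists had a ratio of 0.790. Every one of the 27 PTC peaks was overlapped by a control peak on the same strand (100%, exact 95% interval 87.2 to 100%), while 78.8% of all PTC peaks were. In 70.5% of all genes in both lists every PTC peak had such a partner. Of the 40 control peaks 27 were overlapped by a PTC peak (67.5%, 50.9 to 81.4%), against 60.2% of all control peaks. The intervals cover counting error only, and peaks of 1 gene are not independent. The 13 control peaks without a PTC partner lay in Erap1 (3), Tap2 (3), Tapbp (2), Tap1 (2), H2-Q7 (2) and H2-D1 (1). B2m, H2-K1, H2-T23 and Nlrc5 had no such control peak. These 13 peaks had a median −log10 p of 8.39 and a median width of 239 nt. The 27 control peaks with a partner had 27 and 480 nt. The whole control list showed the same order, with medians of 4.08 and 180 nt without a partner and 11.2 and 390 nt with one. In the whole PTC list the median −log10 p was 3.9 without a partner and 10.5 with one. Peaks of the 10 genes had a higher median −log10 p than their lists, 23 against 7.60 in PTC and 18.7 against 6.36 in control. The shares of 78.8%, 70.5% and 60.2% are therefore not like comparisons for the overlap.

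The number of peaks and the length of exon under them did not always move together. Fewer PTC than control peaks were listed for 7 of the 10 genes, against 41.6% of all genes in both lists, and fewer exon bases lay under PTC peaks for 7 of the 10, against 68% of all such genes. These were not the same 7 genes. A gene in both lists with 1 control peak cannot have fewer PTC peaks, and each of the 10 genes had 3 to 7 control peaks. The share of 41.6% is therefore not a like comparison for the number of peaks. B2m had 1 PTC peak and 3 control peaks, yet 830 nt of its exons lay under the PTC peak and 684 nt under the control peaks. Tapbp had 3 PTC peaks over 781 nt and 5 control peaks over 725 nt. H2-T23 had 4 PTC peaks over 717 nt and 3 control peaks over 1044 nt, and a single control peak of 507 nt contained 2 shorter PTC peaks. Nlrc5 had 3 peaks in each list, over 3412 nt in PTC and 3261 nt in control. In sum the peaks covered 12063 nt in PTC and 16771 nt in control, a ratio of 0.719, against 0.806 for all genes. Of the bases under PTC peaks 89.9% were also under a control peak, and of the bases under control peaks 64.6% were also under a PTC peak.

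**Figure D1:**
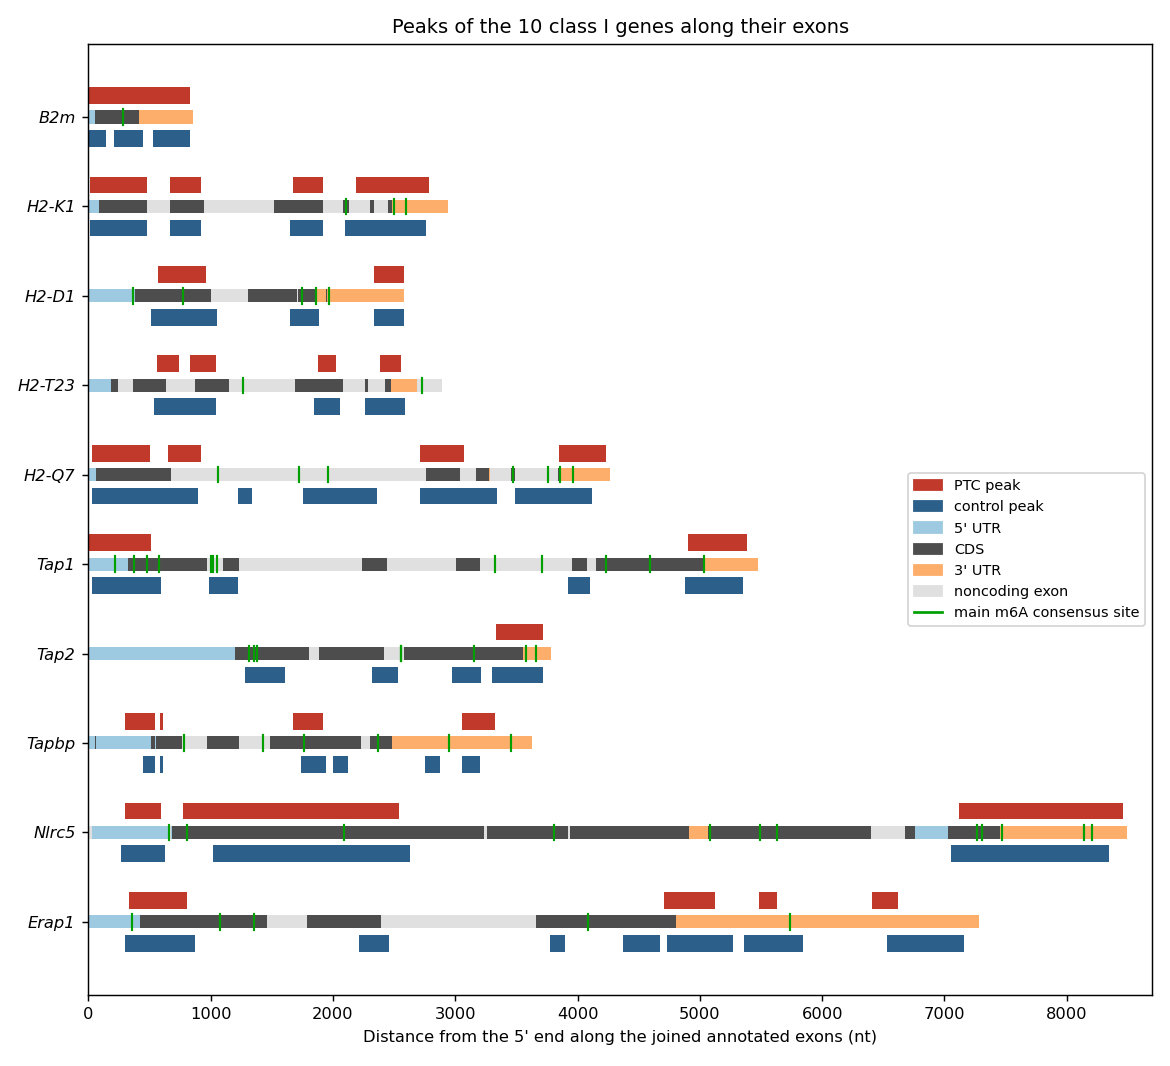
Peaks of the 10 class I genes along their joined annotated exons, with the distance from the 5' end in nt on the horizontal axis. Red bars above each gene are PTC peaks, blue bars below it are control peaks, the middle bar gives the annotated region and green ticks mark GGACT sites. B2m is under peaks over almost its whole length, while Tap2 has 1 PTC peak, at its stop codon, and 4 control peaks.

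Both lists placed peaks over particular GGACT sites of these transcripts. The sequences below are examples, picked after their positions were seen, of sites under peaks near stop codons or in coding sequence and of sites that recur between 2 of the 10 genes. They were read 5' to 3' from GENCODE M21 transcripts on GRCm38. Capitals mark GGACT, with 8 nt on each side, and each line gives the strand and the position of the A. The first 3 lines are sites under peaks of both lists in H2-K1 and H2-Q7. The next 2 lie under control peaks alone, and the last 5 lie under peaks of both lists in other genes.
H2-K1, chromosome 17, minus strand, 33996356, 116 nt past the stop codon: gagcctatGGACTcaatgtga
H2-Q7, chromosome 17, plus strand, 35443471, 118 nt past the stop codon: gagcctatGGACTcaatgtga
H2-K1, chromosome 17, minus strand, 33996452, 20 nt past the stop codon: cctggagtGGACTtggtgaca
H2-K1, chromosome 17, minus strand, 33996844, near the end of the coding sequence: aaaggaggGGACTatgctctg
H2-D1, chromosome 17, plus strand, 35266497, near the end of the coding sequence: aaaggaggGGACTatgctctg
Tap1, chromosome 17, plus strand, 34196787, 13 nt past the stop codon: aggcctctGGACTgcacactg
Tap2, chromosome 17, plus strand, 34216122, 29 nt past the stop codon: ccctctcaGGACTgtggccag
Nlrc5, chromosome 8, plus strand, 94526247, 18 nt past a stop codon: attcttagGGACTgagagctt
Tapbp, chromosome 17, plus strand, 33925691, in coding sequence: gggcccgtGGACTgggaatgg
B2m, chromosome 2, plus strand, 122151041, in coding sequence: ttcagcaaGGACTggtctttc

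The annotated exons of the 10 genes held 61 GGACT sites, of which 20 lay under peaks of both lists, 1 under a PTC peak alone, 14 under a control peak alone and 26 under no peak. This split was not computed over all genes, so it has no share to be read against. Control peaks covered more bases of the 10 genes, 16771 nt against 12063 nt in PTC. Over all genes they did as well, with a PTC to control ratio of 0.806. The single site under PTC alone was in the coding sequence of Nlrc5. Of the 14 sites under control alone 4 were in Tap1, 4 in Tap2, 2 in H2-D1, 2 in H2-Q7, 1 in H2-K1 and 1 in Erap1. At least 1 GGACT was found in 11 of 27 PTC peaks (40.7%, 22.4 to 61.2%), against 37.5% of all PTC peaks, and in 17 of 40 control peaks (42.5%, 27.04 to 59.1%), against 34.5% of all control peaks. Per kb the peaks of the 10 genes held 1.74 GGACT sites in PTC and 2.03 in control. All peaks held 1.33 in PTC and 1.24 in control. The shares of peaks with the motif were thus near those of the whole lists, and a motif match is no evidence that the site is methylated.

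Midpoints of 9 of the 27 PTC peaks lay within 200 nt of a stop codon along the joined exons (33.3%, 16.5 to 54.0%), against 22.4% of all PTC peaks in protein-coding genes. In control 7 of 40 did so (17.5%, 7.34 to 32.8%), against 17%. Midpoints in exons of noncoding transcripts alone have no distance to a stop codon and were counted as not near one. The last PTC peaks of H2-K1, H2-T23 and H2-Q7 counted as near, at 5, −2 and 197 nt (negative is upstream). Their control partners also held coding and 3' UTR bases, but had midpoints in such noncoding exons and did not count. The gap between the lists thus rests in part on where midpoints fell. These shares also depend on the distance chosen. Within 100 nt they were 14.8% in PTC and 12.5% in control, and within 400 nt 40.7% in PTC and 37.5% in control. Of the PTC midpoints 12 lay in coding sequence, 10 in 3' UTRs, 3 in 5' UTRs and 2 in exons of noncoding transcripts. Of the control midpoints 21 lay in coding sequence, 9 in 3' UTRs, 3 in 5' UTRs and 7 in exons of noncoding transcripts. Only 1 of the 13 control peaks without a PTC partner was near a stop codon, that of H2-D1. Of these 13 peaks 9 had midpoints in coding sequence, 3 in exons of noncoding transcripts and 1 in a 3' UTR.

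B2m, on chromosome 2 (plus strand, 122147686 to 122153083 on GRCm38), carried one of the strongest peaks of either list. Fold enrichment is the authors' linear ratio for a peak, whose denominator is not stated, and −log10 p is the strength of their test of that peak, larger for a smaller p. Its PTC peak ran from 122147686 to 122153053 over 4 exon blocks and covered 96.5% of the annotated exon bases. With a −log10 p of 1150 it ranked 9 among the 23368 PTC peaks, although its fold enrichment was 1.94. In control the same stretch was listed as 3 peaks with fold enrichments of 1.45, 1.16 and 1.60 from the 5' end, which covered 79.5% of the exon bases. The last of them, in the 3' UTR, had a −log10 p of 541 and ranked 13 among 29586. Each of the 3 control peaks lay wholly under the PTC peak. The only GGACT of the transcript, in coding sequence (position 122151041), was under a peak in both lists. A peak that spans a whole transcript at a fold below 2 gives no position for a methylated base.

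H2-K1, on the minus strand of chromosome 17 (33996017 to 34000347), encodes the classical heavy chain K. It was listed with 3 peaks in each list, which occupied nearly the same bases: 98.1% of the 1561 nt under PTC peaks and 92.7% of the 1651 nt under control peaks were shared. The first peak, over the 5' UTR and the first coding exons, had identical edges in both lists (33999297 to 34000333), with a −log10 p of 578 and a fold enrichment of 2.49 in PTC and of 716 and 3.39 in control. The third, which spans the last coding exons and part of the 3' UTR, had a −log10 p of 484 and a fold enrichment of 2.34 in PTC, and 449 and 3.37 in control. Both lists held 2 GGACT sites in its 3' UTR part. The control peak reached 90 nt further towards the 5' end and so took in the site near the end of the coding sequence (position 33996844). Of this last peak 224 nt in PTC and 284 nt in control lay in bases annotated as exon of noncoding transcripts alone.

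H2-D1, on the plus strand of chromosome 17 (35262730 to 35267499), encodes the classical heavy chain D. Its strongest peak lay in coding sequence, with a −log10 p of 158 and a fold enrichment of 1.79 in PTC, and 198 and 1.89 in control. The peak at the 3' end had the same edges in both lists (35267259 to 35267499), with fold enrichments of 1.47 in PTC and 1.52 in control. Between them the control list alone held a peak across the stop codon (35266250 to 35266810, fold enrichment 2.30, −log10 p 26.5), with 2 GGACT sites. This was the strongest of the 13 control peaks without a PTC partner.

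H2-T23 encodes Qa-1, a nonclassical class I molecule, and H2-Q7 encodes a Qa-2 antigen. The peaks of H2-T23 (minus strand of chromosome 17, 36029773 to 36032855) were weaker, with a −log10 p of 4.83 to 23 in PTC and 11.9 to 32.4 in control, and fold enrichments from 1.47 to 1.83 in PTC and 1.68 to 2.34 in control. None held a GGACT. H2-Q7 (plus strand, 35439155 to 35443773) had 4 PTC peaks with fold enrichments of 4.38, 3.44, 9.79 and 2.12, and 5 control peaks with 5.87, 1.71, 22.4, 9.72 and 2.72, from the 5' end. The control peak at 22.4, the highest fold of any peak of the 10 genes, was weak (−log10 p 6.48) and lay wholly in an exon of a noncoding transcript (35441268 to 35441865). The PTC peak at 9.79, the highest fold of their PTC peaks, was also weak (−log10 p 4.06). Exon bases of H2-Q7 under peaks came to 1494 nt in PTC and 2839 nt in control. Its 3' UTR held 2 GGACT sites under peaks of both lists, at positions 35443368 and 35443471.

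The H2 genes are close copies of each other, and no source used here says how the authors assigned reads that match several genes. The sequence of each peak was therefore cut into all its words of 50 nt, and each word was looked up in the annotated transcripts of all other genes. Of the words in peaks of the 4 H2 genes 21.4% in PTC and 21.96% in control occurred in another gene. H2-Q7 had the highest shares, 41.3% in PTC and 35.5% in control. In PTC, 20.5% of its words occurred in H2-Q6, 17.03% in H2-Q5 and 14.0% in H2-Q10. In control these shares were 10.9%, 12.3% and 17.96%. The shares differed within the gene: the last PTC peak of H2-Q7, in the 3' UTR, shared 0.590% of its words and the last control peak 0.346%. H2-T23 shared 20.0% in PTC and 15.8% in control, mostly with the pseudogene H2-T-ps. H2-D1 shared 16.7% in PTC and 13.6% in control, and H2-K1 5.45% in PTC and 7.11% in control. With words of 100 nt H2-K1, H2-D1 and H2-T23 shared none, and H2-Q7 26.4% in PTC and 21.3% in control. B2m and Nlrc5 shared none of their words in either list.

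Some single sites recurred between members. The 21 nt around the GGACT 116 nt past the stop codon of H2-K1 were identical to those 118 nt past the stop codon of H2-Q7, and both copies lay under peaks of both lists. The 21 nt near the end of the coding sequence were identical in H2-K1 (position 33996844) and H2-D1 (position 35266497), and both copies lay under control peaks alone. Of the 35 GGACT sites under any peak 7 had the same 21 nt in another gene, 6 of them in H2 genes and 1 in Tap2. Over these 21 nt alone the copies cannot be told apart, while longer stretches around them can differ: the last peak of H2-K1 shared 3.27% of its 50-nt words with other genes in PTC and 2.95% in control.

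**Figure D2:**
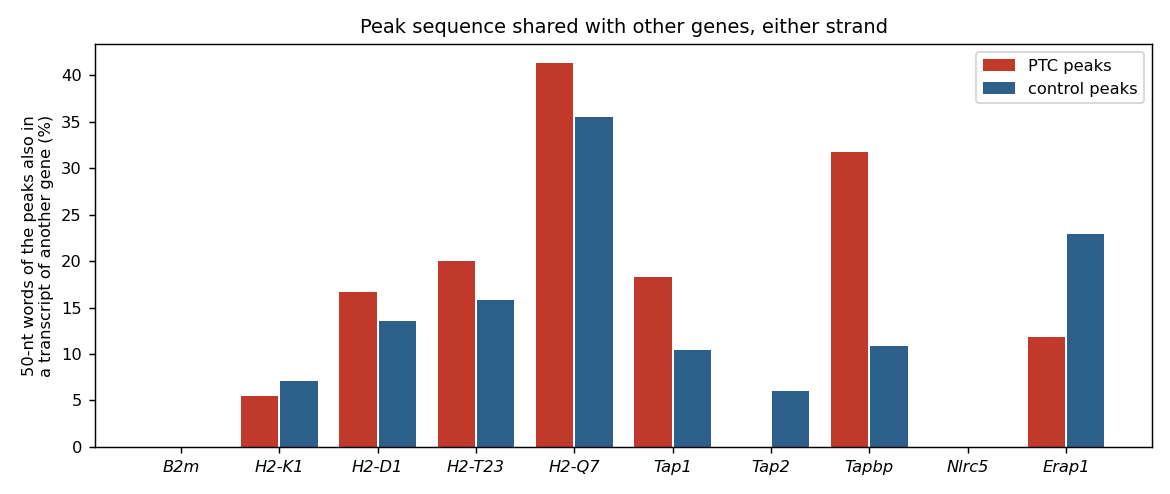
Share of the 50-nt words of each gene's peaks (vertical axis, percent) that also occur in an annotated transcript of another gene on either strand, PTC peaks in red on the left and control peaks in blue. H2-Q7 has 41.3% in PTC and 35.5% in control, and B2m and Nlrc5 have none.

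Tap1 (34187553 to 34197225) and Tap2 (34203527 to 34216321) both lie on the plus strand of chromosome 17. Both showed peaks at the stop codon in the 2 lists, and peaks further inside the gene in control alone. The Tap1 peak at the stop codon had a fold enrichment of 1.74 and a −log10 p of 40.5 in PTC (34196657 to 34197135), and 1.40 and 26.9 in control. Tap2 had its only PTC peak there (34215432 to 34216261, fold enrichment 3.50, −log10 p 58.3), and the matching control peak had 2.48 and 24.7. The PTC peak of Tap2 lay wholly under this control peak. Control alone listed 3 further Tap2 peaks upstream, with −log10 p values of 7.52, 7.46 and 9.06 and fold enrichments of 1.68, 1.78 and 1.77. For Tap1 these were 2 peaks with −log10 p values of 4.22 and 9.15 and fold enrichments of 1.52 and 1.64. Of the Tap2 exon bases 10.2% were under PTC peaks and 31.6% under control peaks, and of the Tap1 exon bases 18.1% were under PTC peaks and 26.8% under control peaks.

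The peak at the 5' end of Tap1 (34187553 to 34188062 in PTC, fold enrichment 3.59, and 34187583 to 34188151 in control, 2.32) cannot be assigned to Tap1 alone. Psmb9, which encodes an immunoproteasome subunit, runs on the opposite strand and shares 212 nt of this peak in PTC and 182 nt in control. Both lists also held a Psmb9 peak there, and whether reads were separated by strand is not stated. The same holds for other members. The first Tapbp peak lay opposite the gene Gm19412, over all 270 nt in PTC and 121 nt in control. Each list held a peak without a gene symbol on the opposite strand there. The last Erap1 peak lay opposite Cast, the gene of calpastatin, over 175 of its 211 nt in PTC and all 630 nt in control, where Cast had a peak of its own. The 3 Tap2 peaks in control alone lay in part opposite Gm20496 (75 nt) or Gm15821 (67 and 63 nt). Control held a peak without a gene symbol opposite the one at Gm20496. It held a Gm15821 peak opposite the one that shares 67 nt and none opposite the one that shares 63 nt.

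Tapbp, also on the plus strand of chromosome 17 (33915899 to 33929292), had 3 PTC peaks with fold enrichments of 4.52, 1.63 and 1.43 and 5 control peaks with 2.69, 1.30, 1.28, 1.34 and 1.34, from the 5' end. The strongest was the coding sequence peak in PTC (−log10 p 21.6) and a 3' UTR peak in control (12.6). The highest fold of each list belonged to the 5' peak opposite Gm19412. The shared coding sequence peak held the only GGACT of Tapbp under a peak (position 33925691).

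Erap1, on the plus strand of chromosome 13 (74639568 to 74693201), showed the largest gap in length among the 10 genes, with 1261 nt under 4 PTC peaks and 2882 nt under 7 control peaks. The peak over the 5' UTR and the start of the coding sequence was the strongest PTC and the strongest control peak, at a fold enrichment of 2.49 and −log10 p of 76.1 in PTC (74639898 to 74646610) and 2.71 and 70 in control (74639868 to 74646670). The remaining PTC peaks lay across the stop codon or in the 3' UTR, and each had a control partner. Control alone listed 3 peaks with midpoints in coding sequence, with fold enrichments of 2.30, 1.53 and 6.61 and −log10 p values of 8.39, 3.10 and 21.9. The last of these spanned 4 exon blocks. None of the 3 held a GGACT.

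Nlrc5, on the plus strand of chromosome 8 (94434356 to 94527272), had the broadest peaks and the same 3 in both lists. The peak in the 5' UTR had a fold enrichment of 1.84 and a −log10 p of 18 in PTC, and 2.64 and 52.2 in control. The long coding sequence peak covered 1766 nt in PTC (fold enrichment 4.75, −log10 p 118) and 1615 nt in control (3.29 and 104), with 1526 nt in common. The third reached from coding sequence into the 3' UTR, over 1346 nt in PTC (2.55 and 36.5) and 1286 nt in control (3.33 and 42.7), and contained 5 GGACT sites in each list. Shared bases were 89.4% of those under PTC peaks and 93.6% of those under control peaks. The PTC coding peak began further upstream and so took in the GGACT at position 94472887, which no control peak covered.

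**Figure D3:**
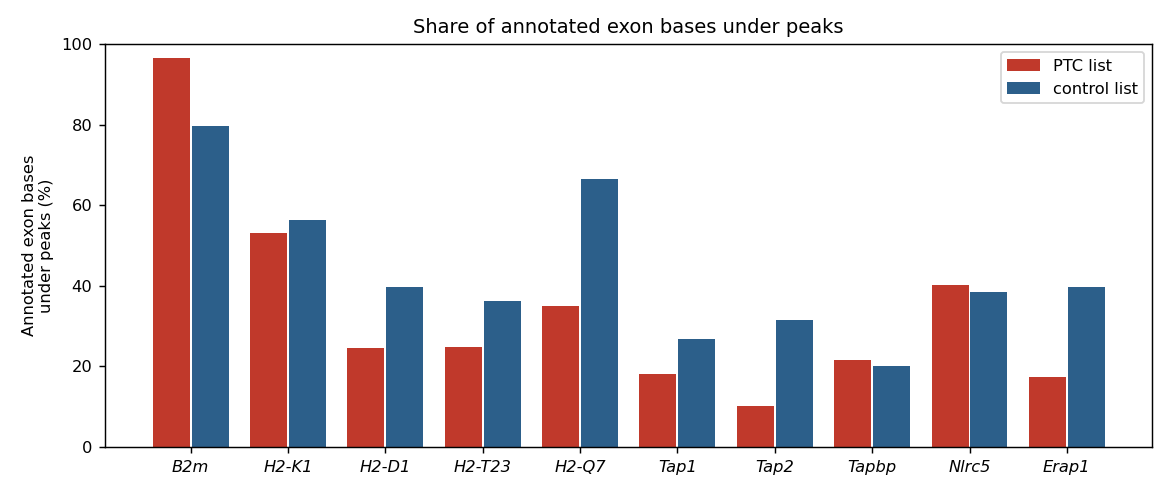
Share of the annotated exon bases of each gene (vertical axis, percent) that lie under peaks, PTC list in red on the left and control list in blue. B2m has the highest shares, 96.5% in PTC and 79.5% in control, and Tap2 has 10.2% in PTC and 31.6% in control.

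The peaks of these genes combined strong p-values with low fold enrichments. The median fold enrichment was 1.94 over the 27 PTC peaks, against 3.66 over all PTC peaks, and 2.14 over the 40 control peaks, against 3.65 over all control peaks. A fold enrichment of at least 4 was reached by 4 of 27 PTC peaks (14.8%, 4.19 to 33.7%), against 45.2% of all PTC peaks, and by 4 of 40 control peaks (10.0%, 2.79 to 23.7%), against 45% of all control peaks. The 4 PTC peaks were 2 of H2-Q7 and 1 each of Tapbp and Nlrc5. The 4 control peaks were 3 of H2-Q7 and 1 of Erap1. A −log10 false discovery rate (FDR) of at least 5 was reached by 23 of the 27 PTC peaks (85.2%), against 59.8% of all PTC peaks, and by 37 of the 40 control peaks (92.5%), against 53.4%. The median −log10 p was 23 for the PTC peaks of these genes, against 7.60 for the list, and 18.7 for the control peaks, against 6.36.

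Strong peaks elsewhere in the lists were mostly of high fold. Among the strongest 10% of peaks by p, 18.5% in PTC and 24.7% in control had a fold enrichment below the median of their list. Of the peaks of the 10 genes in that range 8 of 9 in PTC and 10 of 11 in control did. This did not hold for all class I genes: the strongest peaks of H2-Q6 and H2-Q4, described below, had folds above the list medians. Nor was it particular to the 10 genes. Among other genes named below, the strongest peaks of Calr (fold enrichment 2.03 in PTC and 2.17 in control) and Igkc (2.23 and 2.00) were below the medians. Those of Pdia4 (4.90 in PTC and 3.68 in control) were above them. The lists hold no input level, so the part that transcript abundance has in this was not tested. Fold and p are the authors' values and rank peaks within a list. They are set side by side here without a comparison between lists.

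**Figure D4:**
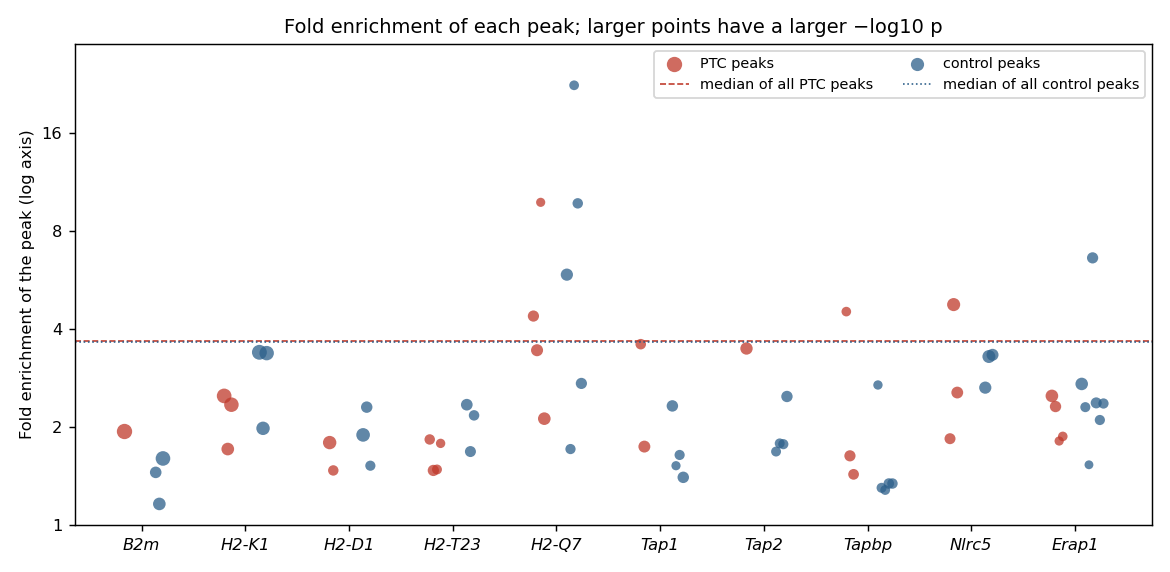
Fold enrichment of each peak (vertical log axis) by gene, PTC peaks in red on the left and control peaks in blue, with larger points for a larger −log10 p and lines at the list medians of 3.66 and 3.65. Most points lie below the lines, and the exceptions are led by H2-Q7.

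**Figure D5:**
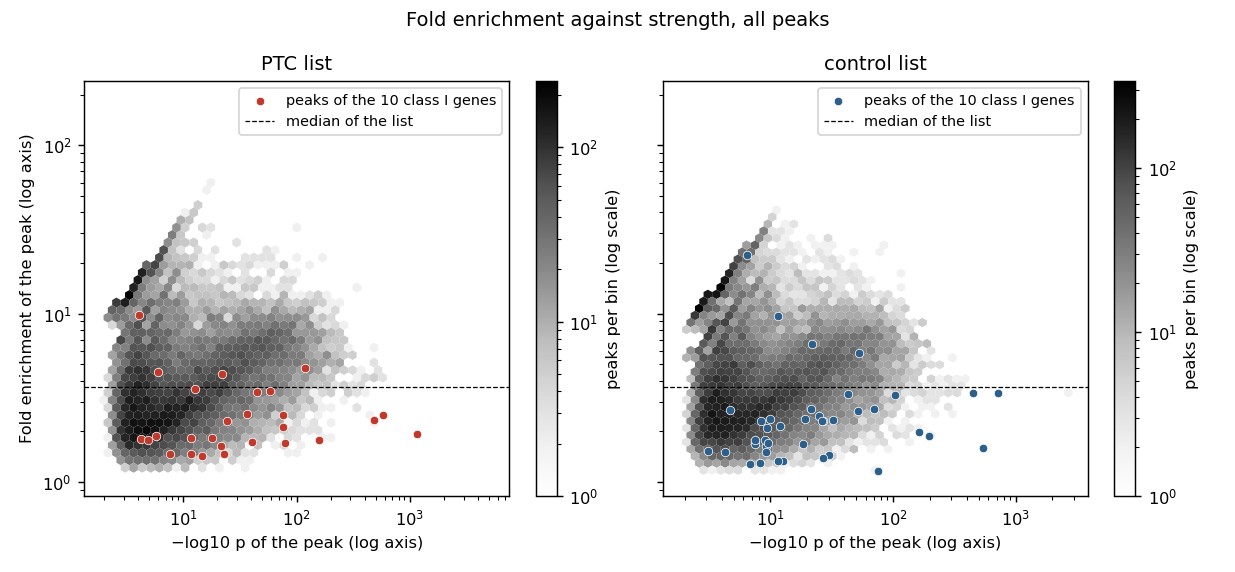
Fold enrichment (vertical log axis) against −log10 p (horizontal log axis) for all peaks in grey, darker where more peaks fall, with the peaks of the 10 class I genes in colour, PTC on the left and control on the right. Among the peaks of the 10 genes, those with the largest −log10 p, up to 1150 in PTC and 716 in control, lie below the list medians of fold enrichment (dashed).

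The edges of partner peaks were placed on a grid. The 27 PTC peaks formed 29 overlapping pairs with control peaks, and 2 pairs had both edges equal, in H2-K1 and H2-D1. Of 58 edges 13 were equal. Of 52 edges that differed by at most 600 nt in the genome, 51 differed by a multiple of 30 nt to within 2 nt, the equal ones included. Edges of these peaks thus moved in steps of about 30 nt. The authors' deposited table gives fragment lengths of 211 nt for PTC and 213 nt for control.

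Further genes of the pathway were read against the 79.2% of all genes with a peak in either list that were in both. All 15 regulators of class I genes had peaks in both lists, 48 in PTC and 52 in control. Among them were the transcription factor genes Nfkb1 (6 PTC and 5 control peaks, strongest −log10 p 138 in PTC and 70.5 in control), Creb1 (5 and 4 peaks, 98.3 and 56.4) and Irf8 (3 and 5 peaks, 150 and 234). Of 8 chaperones and enzymes of folding in the endoplasmic reticulum 7 were in both lists, with 21 PTC and 22 control peaks over all 8. Hspa5, the chaperone BiP, was strongest (3 peaks in each list, 806 in PTC and 610 in control), and Calr, which encodes calreticulin of the peptide-loading complex, had 4 PTC and 3 control peaks (166 and 135). Pdia4 (3 and 1 peaks, 229 and 189) and Uggt1 (3 and 5 peaks, 92.1 and 77.0) were also in both. Ganab, a glucosidase gene, was in the control list only, with 1 peak (−log10 p 6.44).

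Among 15 genes of peptide supply 14 had peaks, 12 of them in both conditions, with 30 PTC and 44 control peaks. The immunoproteasome gene Psmb8 had 3 PTC and 4 control peaks (53.0 and 65.5), the aminopeptidase gene Lnpep 3 and 6 (290 and 203), the signal peptide peptidase gene Hm13 2 and 5 (89.6 and 33.4) and the tapasin-related gene Tapbpl 2 and 4 (62.4 and 39.8). The peptidase genes Npepps (4.87) and Tpp2 (3.16) were in the control list only. Of 14 other class I and class I-like genes 8 had a peak, all of them in both lists. The strongest were H2-Q6, with 2 peaks in each list (1180 in PTC and 773 in control), and H2-Q4, with 3 in each (520 and 432). H2-T22 (3 and 5 peaks, 25.0 and 11.3) and H2-T24 (3 and 1 peaks, 24.3 and 41.1) followed. The strongest peaks of H2-Q6 had fold enrichments of 5.65 in PTC and 4.01 in control, and those of H2-Q4 4.24 and 4.28. These were above the list medians of 3.66 and 3.65, unlike most strong peaks of the 10 genes. Those of H2-T22 (2.31 and 1.84) and H2-T24 (2.28 and 3.03) were below the medians.

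The label of the samples was checked against T cell markers. All 10 T cell markers had a peak, 9 in both lists, with Trbc2 in the PTC list only (strongest −log10 p 6.30). Among the 9 were Cd8b1 (594 in PTC and 274 in control), Cd28 (234 and 143), Cd8a (52.0 and 79.3) and Cd3d (39.3 and 32.6). Markers of other cells were listed too. Of 8 B cell markers 7 were in both lists, with 14 PTC and 21 control peaks, and Cd79a had no peak. Igkc led them (1310 in PTC and 1980 in control), before Cd79b (275 and 354), Ighm (110 and 261) and Ms4a1 (137 and 221). Of 10 myeloid and dendritic cell markers 8 were in both lists, with 12 PTC and 13 control peaks in all. The strongest were Mpeg1 (154 in PTC and 177 in control), S100a8 (114 in PTC and 32.6 in control), Cd14 (93.7 in PTC and 16.5 in control) and S100a9 (50.5 in PTC and 21.2 in control). Tyrobp was in PTC only (12.5) and Itgam had no peak. Of the markers with a peak, 9 of 10 for T cells, 7 of 7 for B cells and 8 of 9 for myeloid and dendritic cells were in both lists. For natural killer cells, described at the end, 1 of 4 was. Over all genes with a peak in either list the share was 79.2%. These counts are small and were not tested against it. Cd79a and Itgam are named after their values were seen. Class I genes are expressed by these cells as well, and their part in the class I peaks was not tested.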

How the data were processed

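m6A immunoprecipitates and inputs of mouse primary T cells were sequenced, and the authors deposited 1 peak list per condition. BWA 0.7.12, MACS2 2.1.0 and the build GRCm39 are named in the submitters' processing notes. Which tool called these peaks is not stated, and peaks joined over several exon blocks are not the usual MACS2 output, so how fold and p were computed is unknown. The settings, the peak threshold and the pooling of samples are not stated. A fold enrichment (a linear ratio, whose denominator is not stated), a p-value and the scores log10 p and log10 FDR stand beside each peak, per the file headers, all as deposited by the authors. The deposited log10 p is used with its sign turned, since an FDR too small to be listed (80 PTC and 41 control peaks, 3 of these genes in each list) has no rank. The deposited summary table gives fragment length, number of peaks and percent of reads in peaks per condition, and its numbers of peaks (15855 for PTC, 19420 for control) differ from the lists'. Of PTC peaks 99.8% and of control peaks 99.9% lay inside the gene of the same Ensembl identifier in GENCODE M21, so coordinates are read as GRCm38, from 1, and none was converted.

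Peaks were compared over exon blocks on the same strand (at least 1 bp shared) in Python 3.11.15 with pandas 2.3.3, numpy 2.4.6 and scipy 1.17.1. Each midpoint of the joined blocks took its region from M21, where coding sequence went before UTRs and these before noncoding exons. Sequences came from M21 transcripts. Intervals are exact Clopper-Pearson 95% intervals for counting error. Functions were tested on simulated data. Alternatives changed the peak threshold, list length, overlap, distance, window and word length. Members and gene lists were chosen with earlier results of these data known. Named beyond the 10 members were list members in 1 peak list only and up to 4 others per list with the highest −log10 FDR; 1 gene that this rule names is not reported here, and further names are said to be chosen later.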

Additional observations from a re-analysis of the deposited data

How the results depend on the processing

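With peaks of a −log10 FDR of at least 5 alone, or with the control list reduced to the length of the PTC list, the sums, shares and overlaps recomputed in this way stayed within 1.5 times the count or within their interval. Of 33 recomputed main values 16 did so and 17 moved. A fold enrichment of at least 4 left 4 PTC and 4 control peaks and 10% of the genes in both lists (H2-Q7), over 2873 nt in PTC and 2393 nt in control, which turns the order of the covered lengths. With 50% of each peak shared, 70.4% of PTC and 47.5% of control peaks were overlapped, and with midpoints within 100 bp 63.0% and 42.5%. Stop codons were within 100 nt of 14.8% of PTC and 12.5% of control midpoints and within 400 nt of 40.7% and 37.5%, so the gap at 200 nt (33.3% in PTC, 17.5% in control) was smaller at both other distances. With 50 nt on each side of the midpoint GGACT was found in 14.8% of PTC and 10.0% of control peaks. Words of 36 nt were shared with other genes by 15.4% in PTC and 17.99% in control and words of 100 nt by 6.24% and 8.70%, against 12.1% and 14.3% at 50 nt. The read length is not stated. Of 60 peak counts of single genes 39 stayed and 21 moved. The causes were not tested, apart from the smaller number of peaks at a fold of at least 4. No paired analysis was possible because the lists hold no values per sample.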

Other observations

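Genes of the class II pathway, which presents peptides from outside the cell and is used by B cells and myeloid cells, were also listed. Among 11 such genes 9 had peaks, 6 of them in both conditions, with 14 PTC and 20 control peaks. Over all genes with a peak in either list 79.2% were in both. Ciita, the class II transactivator and a relative of Nlrc5, had 2 PTC peaks over 2430 nt and 5 control peaks over 3903 nt (strongest −log10 p 69.3 in PTC and 123 in control, with fold enrichments of 6.41 and 7.97). H2-Aa had 3 peaks in each list (26.4 and 96.4), H2-Eb1 had 1 PTC and 2 control peaks (18.2 and 21.6), and Ctss, a protease of the pathway, had 1 in each (34.0 and 16.8). H2-DMb1 (5.46), H2-DMb2 (4.26) and H2-Oa (4.96) were in the control list only. Cd74 and H2-Ab1 had no peak in either list and are named here after their values were seen.

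Of 4 natural killer cell markers Klrb1c was in both lists (strongest −log10 p 6.61 in PTC and 5.53 in control), and Nkg7 (13.4), Klra7 (5.01) and Ncr1 (3.13) were in the control list only. The share in both lists over all genes with a peak in either list was 79.2%. These lists have no replicate check.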
